A study of Rattus norvegicus with 6 samples.

Results

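GATA factor genes were followed through the H3K27me3 gene lists of newborn rat heart muscle cells. The members are the 6 genes whose symbol in the lists is Gata1 to Gata6, out of 22427 gene entries named in any library, and Gata1 is spelled GATA1 there. They were found under their Ensembl identifiers: ENSRNOG00000047663 for Gata1, ENSRNOG00000012347 for Gata2, ENSRNOG00000019336 for Gata3, ENSRNOG00000010708 for Gata4, ENSRNOG00000036732 for Gata5 and ENSRNOG00000023433 for Gata6. The cells were primary cardiomyocytes from Sprague Dawley rats, grown in DMEM with 10% FBS. The 2 control libraries (control 1 and control 2) came from cells given PBS, and the 2 α-KG libraries (α-KG 1 and α-KG 2) from cells given 5 mM α-KG (α-ketoglutarate), both for 24 h. α-KG is a metabolite that histone demethylases use as a cosubstrate, so the comparison asks whether genes carry this mark differently after treatment. The labels do not say whether libraries of a group came from separate cultures or pooled animals.

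GATA factors are DNA-binding proteins with zinc fingers that recognise the bases GATA. In vertebrates they form a pair of branches. Gata1, Gata2 and Gata3 are best known from blood: Gata1 drives red cell and megakaryocyte development, Gata2 maintains blood stem and progenitor cells, and Gata3 directs T helper and innate lymphoid cell fate. Gata4, Gata5 and Gata6 act in the heart and in endoderm: Gata4 controls heart muscle genes together with Nkx2-5 and Tbx5, Gata5 acts in the endocardium, and Gata6 acts in heart and gut development. H3K27me3, trimethylation of lysine 27 of histone H3, is placed by Polycomb complexes and is found over many developmental regulator genes in cells where they are silent.

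Each deposited list names the genes with a peak and holds no count, score, width or position. A gene is therefore listed or not listed in a library, its read depth is unknown, and absence from a list may reflect detection rather than absence of the mark. The control lists held 17245 and 18442 genes, and the α-KG lists 18120 and 19181 (libraries 1 and 2 of each). Libraries of both groups differ in length, and control 1 is the shortest and α-KG 2 the longest. The peak lists do not measure expression, so the labelled cell type could not be checked through its marker genes. The marker counts stand beside 62.8% of all entries, which were in all 4 libraries. Of the entries in both controls, 3.22% were in neither α-KG library. Of 7 cardiomyocyte markers, 6 had an entry and 4 (Tnnt2, Actn2, Actc1 and Pln) were in all 4 libraries. Ryr2, the calcium release channel gene, was in both controls alone, Tnni3 was in α-KG 1 alone, and Myh6 had no entry. Of 7 fibroblast markers 6 had an entry and 5 were in all 4 libraries, and of 6 endothelial markers 6 and 4. Of 6 smooth muscle and pericyte markers 4 had an entry and 2 were in all 4, and of 7 blood cell markers 3 and 2.

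All 6 GATA factor genes had a listed H3K27me3 peak in every library. Gata1, Gata2 and Gata3, the blood branch, were each found in both controls and in both α-KG libraries. Gata4, Gata5 and Gata6, the heart and endoderm branch, were listed in the same 4 libraries. The groups overlap fully, with 6 of 6 members in each of the 2 control and 2 α-KG libraries and a difference of 0 between the group means. The heart branch and the blood branch could not be told apart by their listing. The identical pattern was shared by 14077 of the 22427 entries (62.8%), and it was also the pattern of 49.4% of the 20950 named protein-coding genes of RefSeq.

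**Figure D1:**
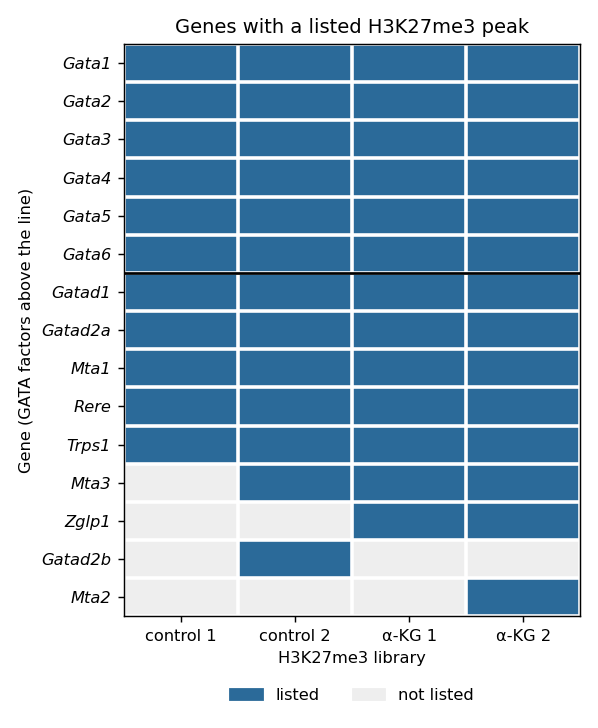
Listing of 15 genes (rows) in the 4 H3K27me3 libraries (columns); dark cells are listed and pale cells are not. The 6 GATA factors above the line are listed in all 4 libraries, whereas 5 of the 9 genes below it, from the list of other GATA-type zinc finger genes, are.

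No member changed its listing with α-KG. Loss was counted as an entry in both controls and neither α-KG library, and it held for 0 of the 6 members against 3.22% of the 16005 entries in both controls. Gain, the reverse pattern, held for 0 of the 6 against 4.48% of the 16287 entries in both α-KG libraries. At such shares few of 6 genes would change in any case, so the 0 does not set the GATA genes apart. No p-value was computed, and 2 against 2 libraries cannot give an exact two-sided permutation p under 0.333. Both shares rest on all 4 libraries. Leaving out 1 at a time, whichever it was, raised the lost count from 516 to between 904 and 1369. The gained count rose from 729 to between 1109 and 2290. The members stayed at 0 by construction, since each of them is in every library. A change in the height or width of a peak at a GATA gene would not be seen in these lists.

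The members do not neighbour each other. In the RefSeq annotation of assembly GRCr8 the 6 genes lie on 6 chromosomes, and 0 other GATA factors stand among the 10 nearest named protein-coding genes on either side of any of them. No peak shared by neighbouring genes would thus cover 2 members.

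Promoter sequences of 4 members differed in their number of CG dinucleotides, a feature often linked to Polycomb marking, and were alike in the share of G and C bases (60.7% to 65.0%). RefSeq promoter windows of 300 bases (250 before and 50 after a transcription start, GRCr8) were matched by symbol for Gata1, Gata2, Gata3 and Gata6, and Gata4 and Gata5 had no match. The 250 bases before the start are shown for the 3 members of the blood branch, because they span the range from the poorest to the richest in CG; capitals mark each CG dinucleotide.
Gata1 (chrX:17201387-17201636, plus strand, GRCr8): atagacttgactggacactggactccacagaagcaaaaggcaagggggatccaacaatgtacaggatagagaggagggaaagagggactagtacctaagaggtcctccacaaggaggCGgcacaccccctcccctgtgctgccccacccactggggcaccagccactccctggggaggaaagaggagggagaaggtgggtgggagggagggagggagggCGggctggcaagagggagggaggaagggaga
Gata2 (chr4:122216031-122216280, plus strand, GRCr8): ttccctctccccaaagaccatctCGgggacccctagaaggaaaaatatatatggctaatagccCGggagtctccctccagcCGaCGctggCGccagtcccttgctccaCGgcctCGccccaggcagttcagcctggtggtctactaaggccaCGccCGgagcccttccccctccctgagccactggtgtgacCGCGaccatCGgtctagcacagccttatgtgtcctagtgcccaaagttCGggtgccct
Gata3 (chr17:73553298-73553547, plus strand, GRCr8): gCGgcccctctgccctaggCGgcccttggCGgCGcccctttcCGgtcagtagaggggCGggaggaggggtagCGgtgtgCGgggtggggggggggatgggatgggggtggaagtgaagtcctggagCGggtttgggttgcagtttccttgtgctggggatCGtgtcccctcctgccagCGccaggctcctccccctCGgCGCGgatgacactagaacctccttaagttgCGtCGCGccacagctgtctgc
The Gata1 stretch holds 2 CG dinucleotides, the Gata2 stretch 13 and the Gata3 stretch 17. The coordinates are those of GRCr8 and not of rn6, the build named for the lists, so they place no peak.

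Over the full window, Gata1 had 3 CG dinucleotides, Gata6 12, Gata2 16 and Gata3 20, where the median of 17179 promoters was 14. The order was thus Gata1, Gata6, Gata2, Gata3, with Gata1 at percentile 21.7 and Gata3 at percentile 65.1 of all promoters. Gata1, with the fewest, was listed in all 4 libraries. Among all 4454 promoters with 0 to 4 CG, 26.1% belonged to genes in all 4 libraries, against 42.6% of the 2505 with 5 to 9. The share was 48.3% of the 3766 promoters with 10 to 19 CG, the class of Gata2 and Gata6, and 66.4% of the 6454 with 20 or more, the class of Gata3. Genes in all 4 libraries had a median of 20 CG, and genes in none had 5. Only 80.1% of entries with a symbol were matched to RefSeq. Genes in none may thus include listed genes under another symbol, and the shares in all 4 libraries may be too low. Genes in 1, 2 or 3 libraries had medians of 14, 12 and 11, so the count did not climb step by step with the number of libraries. These shares are a description across genes, which are not independent replicates. Each window stands at 1 transcription start per gene, and that start lies 8346 bases inside the annotated gene for Gata1, 4780 for Gata2, 9314 for Gata3 and 0 for Gata6.

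**Figure D2:**
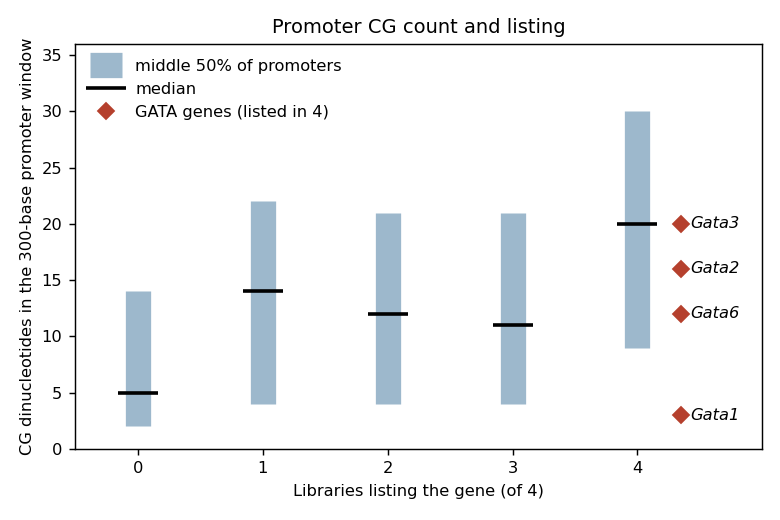
Number of CG dinucleotides in the 300-base promoter window (vertical axis) by the number of libraries that list the gene (horizontal axis); bars span the middle 50% of promoters, black lines are medians and diamonds are GATA genes. The median is 5 for genes in 0 libraries and 20 for genes in 4, and Gata1 with 3 lies below the bar for genes in 4. Genes in 0 libraries may include listed genes under another symbol.

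GATA factors are known to bind their own and each other's regulatory regions, so the windows were searched for the GATA motif. The motif was GATA with A or T before it and A or G after it, searched on both strands with overlapping matches allowed. Gata3 had 1 match, tGATAg, beginning 26 bases after the start, and Gata1, Gata2 and Gata6 had 0. Of all 17179 promoters, 25.9% held at least 1 match. The share was 19.8% for genes in all 4 libraries and 35.3% for genes in none, which may include listed genes under another symbol. These groups also differ in promoter composition, with a median of 20 CG against 5. Motif shares were not compared at equal CG count, so a relation of the motif to the listing was not tested. A match is a description of letters and shows no binding.

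The genes around the GATA factors were listed unevenly. Of the 60 neighbours, taken as the 5 nearest named protein-coding genes on each side of each member, 35 (58.3%) were in all 4 libraries, against 49.4% of all 20950 named genes. Per library, control 1 listed 38 of the 60, control 2 43, α-KG 1 42 and α-KG 2 46, which is the order of the lengths of the whole lists. All 60 neighbours included 0 lost and 1 gained gene, Riok3, which encodes a protein kinase and stands 4 genes from Gata6. Over all entries 3.22% of those in both controls were lost and 4.48% of those in both α-KG libraries gained, so these counts do not set the neighbours apart. The wider set of 120 neighbours, 10 on each side, had 77 (64.2%) in all 4 libraries. It held 1 lost gene, Kbtbd12, 6 genes from Gata2, and 2 gained genes, Riok3 and Pinx1. Pinx1, a telomerase inhibitor gene, stands 6 genes from Gata4.

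Gata1 and Gata2 each stood at the end of a stretch of listed genes. On one side of Gata1, the consecutive genes Glod5, Suv39h1, Was and Wdr13 were all in 4 libraries. Suv39h1 encodes a histone H3 lysine 9 methyltransferase, and Was the blood cell actin regulator mutated in Wiskott-Aldrich syndrome. On the other side Hdac6, Eras, Pcsk1n, Timm17b and Pqbp1 had no entry in any library. Gata1 thus stood at the end of a stretch of 5 consecutive genes in all 4 libraries, from Wdr13 to Gata1. Gata2 likewise ended a stretch of 5, from Hmces through H1f10, Rab7a and Rpn1, and its neighbour on the other side, the chaperone gene Dnajb8, had no entry. Beyond Dnajb8, Eefsec was in all 4 libraries. A gene with no entry may be without a peak or may carry another symbol in the lists.

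Gata3 and Gata6 lay inside longer stretches. Gata3 was in a stretch of 6 genes in all 4 libraries, from Taf3 to Proser2, and its nearest neighbours were Taf3, a subunit of the general transcription factor TFIID, and Celf2, an RNA-binding protein gene. Gata6 was in a stretch of 6 from Snrpd1 to Cables1, with Mib1, a ubiquitin ligase of the Notch pathway, and Rbbp8, a DNA end resection factor, on either side. Gata4 and Gata5 each shared their stretch with only 1 more gene. For Gata4 that was Blk, a B cell tyrosine kinase, while Neil2, a DNA repair glycosylase on its other side, had no entry. For Gata5 it was Slco4a1, an organic anion transporter, while Rbbp8nl was listed in α-KG 2 alone. The median stretch over the 10354 named genes in all 4 libraries was 3, and 72.9% of them had a stretch of at most 5 and 80.5% one of at most 6. The members thus fall on both sides of the median.

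**Figure D3:**
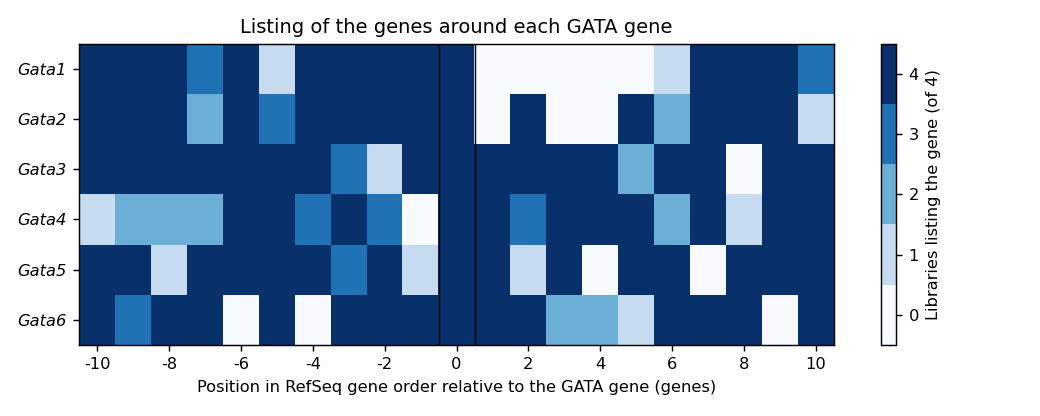
Number of libraries, 0 to 4, that list each of the 10 nearest named protein-coding genes on either side of each GATA gene (rows), by position in RefSeq gene order (horizontal axis). All 6 GATA genes at position 0 are in 4 libraries, and the 5 nearest genes on one side of Gata1 are in 0.

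The domain column of the lists gives a GATA-type zinc finger for 14 entries, the 6 members and 8 other genes. Of these 8, 4 were in all 4 libraries, where 62.8% of all entries were, so the count does not set them apart: Gatad1, Mta1, Rere and Trps1, the last encoding a repressor at GATA sites. The other 4 varied. Mta3 was missing from control 1, and Gatad2b was listed in control 2 alone and Mta2 in α-KG 2 alone. Mta1, Mta2, Mta3 and Gatad2b encode subunits of the NuRD chromatin remodelling complex. Zglp1, a regulator of germ cell development, appeared under α-KG in both libraries and under PBS in none, which made it the 1 gained gene of the 14, where 4.48% of the entries in both α-KG libraries were gained. Per library the 8 gave 4 in control 1, 6 in control 2, 6 in α-KG 1 and 7 in α-KG 2. Gatad2a, another NuRD gene, is not among the entries given a GATA-type zinc finger in the lists, and was in all 4 libraries. The domain names specific to the family, GATA-1/2/3, GATA-4/5/6 and the N-terminal activator domain, occur on members alone, and Gata6 carries the N-terminal domain without the GATA-4/5/6 name.

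Cofactors and partner transcription factors are given as counts, to be read against the 62.8% of all entries in all 4 libraries and the 4.48% gained among entries in both α-KG libraries. Zfpm1 and Zfpm2, the FOG proteins that bind the N-terminal zinc finger of GATA factors, were both in all 4. Among 11 partners in heart muscle, 9 were in all 4, with the homeobox gene Nkx2-5, the T-box genes Tbx5 and Tbx20, and Isl1, a marker of cardiac progenitors, as examples. Hand2, a bHLH factor of the right ventricle, was missing from control 1. Mef2c, a MADS-box factor that binds DNA with Gata4, was absent from the controls and present in both α-KG libraries, and so was the 1 gained partner of the heart. Control 1 listed 9 of the 11, control 2 10, and each α-KG library 11.

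Among 10 blood partners, 8 were in all 4 libraries, against the same 62.8% of all entries. They include Tal1, Lmo2 and Ldb1, which form a complex with Gata1, and Runx1, a blood stem cell factor. Spi1, the myeloid factor that opposes Gata1, and Nfe2, an erythroid leucine zipper gene, were listed in α-KG 2 alone. That pattern held for 6.96% of all entries, and α-KG 2 is the longest list. Of 8 T cell and innate lymphoid entries, 7 were in all 4, among them Tbx21 and Foxp3, which specify T cell types other than that of Gata3. The eighth was Il4, a cytokine gene that Gata3 activates. It had the gained pattern, as had 4.48% of all entries in both α-KG libraries. The neighbours of Il4 in that cytokine locus, Il5 and Il13, were in all 4. Of 8 endoderm entries (Afp had none), 7 were in all 4, including Foxa1, Foxa2, Sox17 and Hnf4a, and Ttr, a liver transport protein gene, was in control 1 alone.

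Listings of known GATA target genes varied between libraries, and are given as counts without a test beside the shares over all entries, 62.8% in all 4, 3.22% lost and 4.48% gained. Of 11 cardiac targets, 7 had an entry and 4 (57.1%) were in all 4 libraries, a share near that of all entries: Actc1, a sarcomeric actin, Ccnd2, a G1 cyclin, Nppb, a natriuretic peptide, and Slc8a1, the sodium-calcium exchanger. Nppa was in control 2 alone, Myh7 in α-KG 2 alone and Tnni3 in α-KG 1 alone. Myh6, Tnnc1, Chrm2 and Cdk4 had no entry. Of 8 erythroid and mast cell entries, 1 (12.5%) was in all 4, the stem cell factor receptor gene Kit. Epb42, a red cell membrane protein gene, was in both controls and neither α-KG library, and the mast cell protease gene Cpa3 showed the reverse. The remaining 5 were neither lost nor gained. Slc4a1 was in control 2 and both α-KG libraries, and Epor in control 2 and α-KG 2. Alas2 was in control 2 and α-KG 1, Hba1 in control 1 and α-KG 1, and Ahsp in control 2 alone. Hbb had no entry. Globin genes have near-identical copies, and their state is uncertain.

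**Figure D4:**
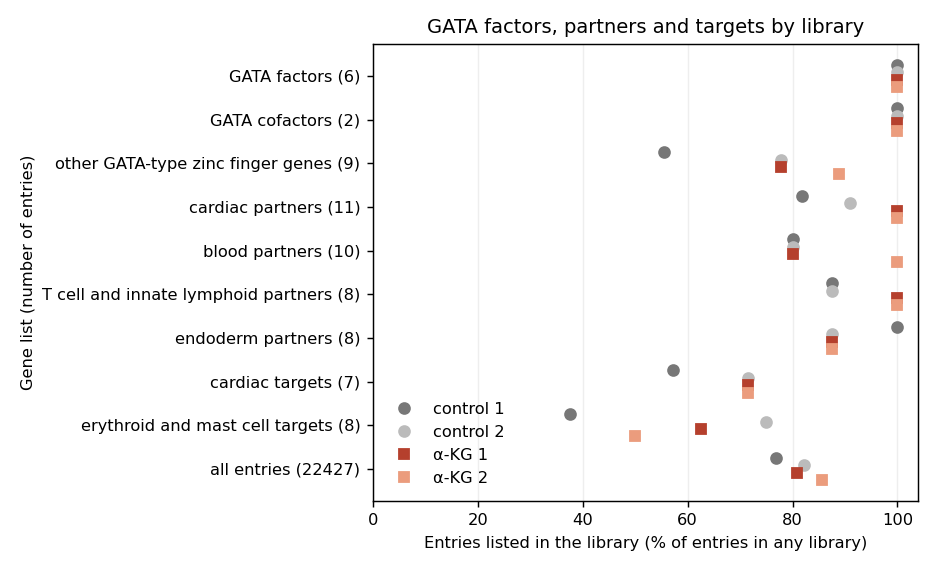
Share of the entries of each gene list that a library lists (horizontal axis, % of the entries found in any library) for 2 control (circles) and 2 α-KG (squares) libraries; the number of entries stands beside each name. GATA factors and their 2 cofactors are at 100% in every library, and erythroid and mast cell targets range from 3 to 6 of 8 entries.

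Counts for 2 more transcription factor families stand beside the same 62.8% of all entries in all 4 libraries, 3.22% lost and 4.48% gained. Both include heart muscle partners named above, but the T-box entries were taken by symbol, whatever their role. Of the 4 MEF2 genes, 2 were in all 4 libraries (Mef2a and Mef2d), Mef2b was missing from control 1 and Mef2c was gained. Of 16 T-box entries, 14 were in all 4, Tbx10 was in α-KG 2 alone, and Tbx22 was lost. The GATA family had 6 of 6. Families this small were compared by count alone, and the difference between them was not tested.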

How the data were processed

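H3K27me3 chromatin immunoprecipitation sequencing was compared between 2 control and 2 α-KG libraries, grouped by the labels; the 2 input samples were not analysed here. The authors deposited 1 gene list per library (Ensembl ID, symbol, protein domain names). CASAVA, BWA, MACS2 and the build rn6 appear in the submitters' processing notes, without roles. The peak threshold, the use of an input and the assignment of peaks to genes are not stated there. Depth is unknown, so no interval was computed.

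Python 3.11.15 with pandas 2.3.3 and matplotlib 3.10.9 was used throughout. Symbols were matched without regard to case. The 20567 entries with a symbol were matched to RefSeq (GRCr8) by current or older symbol, and 80.1% had a match; unmatched RefSeq genes count as having no entry. Gene order and promoter sequences came from that annotation, without genes named LOC or RGD. The members and gene lists were chosen with earlier results of these data known. Named were all 6 members, genes with the GATA-type domain, nearest or changed neighbours, and list genes that varied between libraries, with up to 4 per list in all 4; others, such as the MEF2 and T-box genes, the other neighbours and several list genes, were chosen after their values were seen. Some genes that this rule names are left out of the text. Counting was checked on simulated lists with planted lost and gained patterns, which checks the code and not the results. Alternatives included dropping each library in turn, pairing libraries by replicate number, collapsing by symbol, and other neighbour, CG and list definitions.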

Additional observations from a re-analysis of the deposited data

How the results depend on the processing

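Leaving out any 1 library or collapsing entries by symbol left 6 of 6 GATA genes in every library used, 0 lost and 0 gained. So did counting any imbalance between the groups, a setting chosen after the data were seen. These outcomes were fixed by construction, since each GATA gene is in all 4 libraries, so they do not test the result. Over all genes, leaving out 1 library gave 904 to 1369 lost and 1109 to 2290 gained entries instead of 516 and 729, since fewer libraries must then share the pattern; each library left out, control 1, control 2, α-KG 1 or α-KG 2, moved both counts this far. With the replicate block, in which control and α-KG libraries of the same number form a pair, lost and gained were 516 and 729 by construction, since a change in every pair is the same pattern. Collapsed by symbol they were 347 and 564. Of the entries with a GATA-type zinc finger, 10 were in all 4 libraries and 6 with the members alone, by construction. The neighbours' share in all 4 of 58.3% became 61.1% with 3 genes and 64.2% with 10 genes on each side, and 71.4% among neighbours with an entry, a setting chosen after the data were seen that drops unlisted genes. The median percentile of the 4 GATA promoters was 50.9 by CG count and 41.9 by observed over expected CG. Over all lists, 68.2% of entries and 57.7% of the genes looked for were in all 4. Without scores or depth, changes in peak strength cannot be seen.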
